A study of Mus musculus with 16 samples.

Results

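The regions described here carried called H3K27ac in medulloblastomas of Sufu;Spop double knockout (DKO) mice and shared no base with any H3K27ac region called in medulloblastomas of mice overexpressing SmoM2. They were chosen from the DKO list on chromosomes 1 to 19 as regions at least 750 bp wide, and they are called DKO-only regions below. The rule kept 1323 regions, which is 12.8% of the 10371 DKO regions of that width and is set by the choice itself. The other 9048 regions of that width shared at least 1 base with SmoM2 H3K27ac and are called shared regions. Because both H3K27ac lists chose the regions, their width, enrichment and distance to SmoM2 H3K27ac are given as descriptions, whereas Gli2 and H3K36me3 come from other antibodies and were compared.

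The tumours were taken at postnatal day 13 and assayed by ChIP-seq, in which chromatin fragments bound by an antibody are sequenced, for Gli2, H3K27ac and H3K36me3, and each genotype had 2 libraries per antibody beside 2 input libraries. The labels name the alleles as Sufu;Spop double knockout in the first group and SmoM2 overexpression in the second. The sources used here do not give the Cre line or promoter behind each allele or the number of animals, and the study has no tumour-free control among its labels. Each pair of ChIP libraries is represented by 1 peak list, so no difference between genotypes has a replicate check, and a region that a list lacks may still have carried the mark below the caller's threshold. Read numbers are not stated, so depth is unknown.

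Acetylation of histone H3 at lysine 27 is deposited by p300 and CBP and marks active promoters and enhancers. Trimethylation of lysine 36 is laid down by Setd2 as it travels with elongating RNA polymerase II and marks the bodies of transcribed genes. Smoothened is the signal transducer of the Hedgehog pathway, and SmoM2 is a constitutively active form of it. Sufu acts below Smoothened by binding Gli proteins and holding them back, and Spop is the adaptor through which Cul3 ubiquitin ligase marks Gli proteins for degradation. Gli2 is the main transcriptional activator of the pathway in the granule cell precursors from which such tumours arise. Positions are in mouse build mm9. No annotation or genome of that build was used, so genes and sequence at these regions, and cell type markers of the tumours, are not analysed here. Intervals of a share are Wilson 95% intervals, those of a difference between 2 shares are Newcombe 95% intervals, and both cover counting error over regions and not variation between animals.

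DKO-only regions were narrow and modestly enriched compared with shared regions. Their median width was 972 bp, with the middle of the distribution between 847 and 1248 bp (lower and upper quartile) and a maximum of 4873 bp, against a median of 1411 bp and a maximum of 41769 bp for shared regions. The authors' H3K27ac fold enrichment over the caller's background had a median of 3.74 and did not exceed 6.54 in DKO-only regions, against a median of 5.01 and a maximum of 21.3 in shared regions. The median −log10 q was 2.49 in DKO-only and 5.37 in shared regions. Together the DKO-only regions spanned 1.47 Mb, or 5.90% of the acetylated bases of the DKO list on these chromosomes, while shared regions spanned 17.4 Mb, or 70.0%.

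The thresholds of the rule fell within a continuum. The 177 DKO-only regions of 750 to under 800 bp had a median fold enrichment of 3.63, and the 214 unshared DKO regions of 700 to under 750 bp, just too narrow to be included, had 3.67. The 20 DKO-only regions within 100 bp of SmoM2 H3K27ac had a median fold enrichment of 3.64, and the 56 DKO regions of sufficient width that shared no more than 100 bp with SmoM2 H3K27ac had 3.65.

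**Figure D1:**
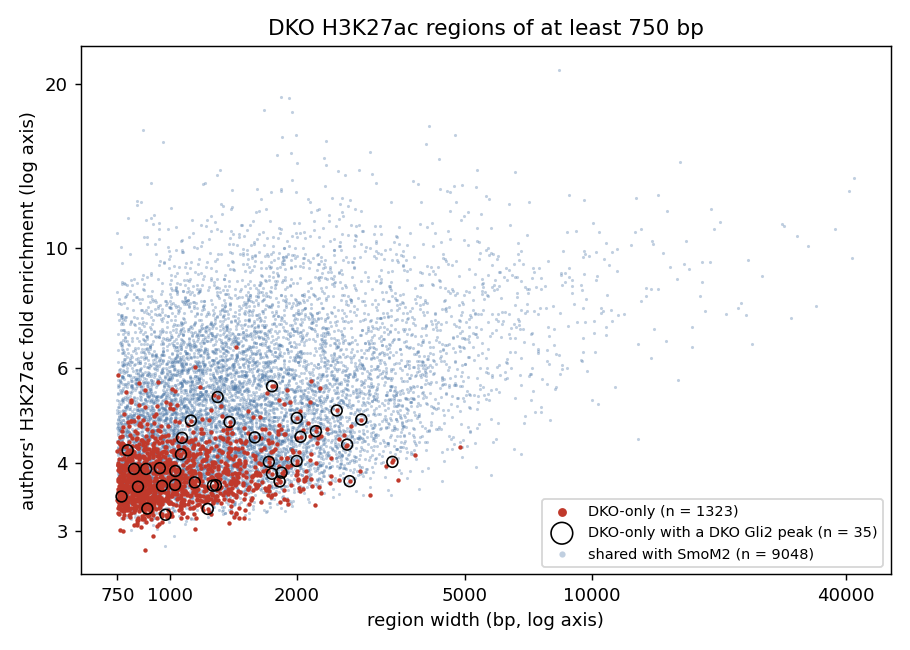
Width (bp, log axis) against the authors' H3K27ac fold enrichment (log axis) for each DKO H3K27ac region at least 750 bp wide. The 1323 DKO-only regions lie in the lower left of the cloud, up to a fold enrichment of 6.54, and the 35 of them with a DKO Gli2 peak (circled) are spread over their range of width, while the 9048 shared regions reach 21.3.

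By the same width and overlap rule, 335 of 7911 SmoM2 regions were called in SmoM2 tumours only and are called SmoM2-only regions. The size of each set depends on the length of the lists, which was 28987 regions on these chromosomes in the DKO list and 21211 in the SmoM2 list, and the sizes are not compared.

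The most confidently called DKO-only region lay on chromosome 7 at 150970237–150971670, with a fold enrichment of 6.54 and a −log10 q of 9.83. It lay 37.3 kb from the nearest SmoM2 H3K27ac region, 225 kb from the nearest DKO Gli2 peak and 8.11 kb from the nearest DKO H3K36me3 region. The second, on chromosome 13 at 93124346–93125488, had a −log10 q of 7.86 and was more isolated, 175 kb from SmoM2 H3K27ac and 93.5 kb from the nearest other DKO H3K27ac region. The third, on chromosome 7 at 51809058–51809810, was only 753 bp wide, had a −log10 q of 7.08 and lay 4.98 kb from SmoM2 H3K27ac. None of the 10 DKO-only regions with the highest −log10 q touched H3K36me3 of SmoM2 tumours, and 1 of them, on chromosome 15 at 82798529–82800272, held a Gli2 peak of DKO tumours. Over all DKO-only regions these shares were 13.5% and 2.65%, and 10 regions are too few to compare with them.

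The widest DKO-only region lay on chromosome 10 at 20348332–20353204. It was 4873 bp wide with a fold enrichment of 4.28, and it stood 315 kb from SmoM2 H3K27ac, 267 kb from DKO H3K36me3 and 7203 kb from a DKO Gli2 peak. Another of the 10 widest, on chromosome 6 at 8034287–8037763 (3477 bp), lay 90.2 kb from SmoM2 H3K27ac. It was 0.806 kb from an H3K36me3 region in DKO tumours but 109 kb from the nearest one in SmoM2 tumours. In contrast, the region on chromosome 9 at 57807608–57810426 (2819 bp) lay 1.32 kb from SmoM2 H3K27ac, and its whole length was covered by H3K36me3 in both genotypes.

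Most DKO-only regions stood at some distance from SmoM2 acetylation, with a median of 12.4 kb and quartiles of 3.13 and 41.6 kb. Within 1 kb of a SmoM2 H3K27ac region lay 158 of them (11.9%, 10.3–13.8%), within 5 kb 432 (32.7%, 30.2–35.2%) and within 10 kb 609 (46.0%, 43.4–48.7%). A further 131 (9.90%, 8.41–11.6%) lay more than 100 kb away. SmoM2 H3K27ac flanked 160 regions (12.1%) within 10 kb on both sides, 449 (33.9%) on one side, and 714 (54.0%) on neither. The nearest other DKO H3K27ac region lay at a median of 4.45 kb, which is not compared with the SmoM2 distance because the rule and the list lengths bear on both. It was a region shared with SmoM2 tumours for 591 DKO-only regions (44.7%), a narrower unshared region for 644 (48.7%) and another DKO-only region for 88 (6.65%).

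The region farthest from SmoM2 H3K27ac was on chromosome 6 at 96115385–96116215, 1013 kb away, with a fold enrichment of 3.87. It was followed by chromosome 14 at 96917557–96918783 at 929 kb, which also lay 747 kb from any other DKO H3K27ac region, and by chromosome 15 at 69106000–69106998 at 911 kb. Of the 10 farthest, 2 neighbour each other on chromosome 14, at 78281130–78282333 and 78282960–78284791, with fold enrichments of 4.05 and 4.61, 623 and 625 kb from SmoM2 H3K27ac. None of these 10 held a Gli2 peak of either genotype, but 10 regions are too few to show a lack of it. DKO Gli2 lay in 2.65% of all DKO-only regions and in 3.82% of the 131 beyond 100 kb.

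H3K36me3 of both genotypes was less frequent at DKO-only regions far from SmoM2 acetylation than at those near it, whereas no such difference was detected for Gli2. Among the 609 DKO-only regions within 10 kb of SmoM2 H3K27ac, 24.5% touched an H3K36me3 region of DKO tumours, compared with 6.86% of the 714 beyond 10 kb, a difference of 17.6 percentage points (13.7–21.5). For H3K36me3 of SmoM2 tumours the shares were 23.0% and 5.46%, a difference of 17.5 points (13.8–21.3). None of the 131 regions beyond 100 kb touched H3K36me3 of either genotype, which allows a share of up to 2.29% (3 counts of 131). The Wilson upper limit was 2.85%. The narrower unshared DKO regions behaved in the same direction, with DKO H3K36me3 at 20.2% of the 5739 within 10 kb and 9.40% of the 6626 beyond it, a difference of 10.8 points (9.54–12.1). DKO Gli2 peaks touched 2.79% of DKO-only regions within 10 kb and 2.52% beyond it, and the interval of that difference included 0 (0.27 points, −1.50 to 2.15).

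**Figure D2:**
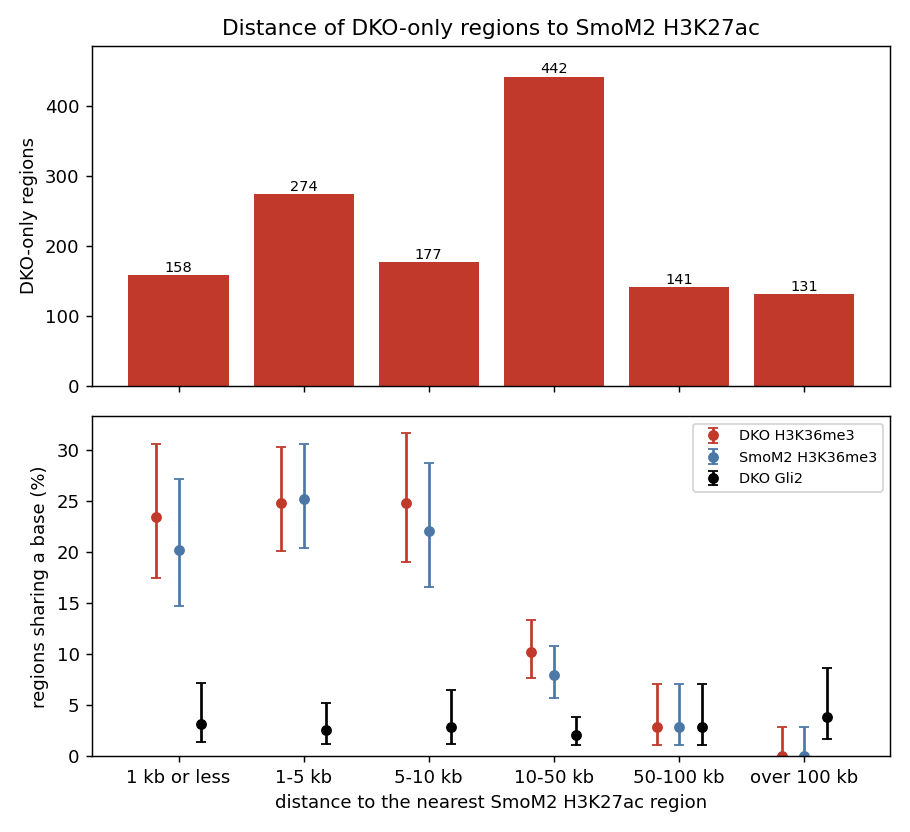
Number of DKO-only regions (top) and the percentage of them sharing a base with DKO H3K36me3, SmoM2 H3K36me3 or DKO Gli2 (bottom, bars are Wilson 95% intervals) by distance to the nearest SmoM2 H3K27ac region. Both H3K36me3 shares lie between 20.3 and 25.2% up to 10 kb and reach 0 beyond 100 kb, while the Gli2 share lies between 2.04 and 3.82% throughout.

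Few DKO-only regions held a Gli2 peak. In DKO tumours 35 of 1323 did (2.65%, 1.91–3.66%), against 5.69% of all DKO regions of at least 750 bp and 6.13% (5.66–6.65%) of shared regions. The difference from shared regions was −3.49 percentage points (−4.39 to −2.37). At equal width the shares were closer. Among regions of 750 to under 1500 bp, 20 of 1153 DKO-only regions (1.73%) and 111 of 4935 shared regions (2.25%) held a DKO Gli2 peak, and the interval of the difference included 0 (−0.51 points, −1.27 to 0.49). Per length, over all widths together, DKO-only regions held 23.8 DKO Gli2 peaks per Mb and shared regions 36.9. This density has no interval and was not compared at equal width. A Gli2 peak of SmoM2 tumours lay in 1 DKO-only region (0.0756%, 0.0133–0.427%), against 0.598% of all DKO regions of this width and 61 shared regions (0.674%). Since the DKO Gli2 list held 1397 peaks on these chromosomes and the SmoM2 list 136, the 2 lists are not compared by these shares.

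Each of the 35 DKO-only regions with Gli2 held 1 DKO Gli2 peak. These regions were wider than the 1288 without Gli2, with a median width of 1284 bp against 966 bp, and their median H3K27ac fold enrichment was 3.91 against 3.73. Their median distance to SmoM2 H3K27ac was 20.8 kb against 12.4 kb, with quartiles of 3.21 and 48.9 kb against 3.13 and 40.8 kb. The Gli2 summit lay inside the region for 33 of the 35 peaks, at a median of 292 bp from the centre of the region. Only 5 of the 35 also touched DKO H3K36me3.

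The Gli2 peak with the highest −log10 q in these regions was at chromosome 9 72951182–72951858. It ranked 3 in the DKO Gli2 list on these chromosomes, with a Gli2 fold enrichment of 52.6, and it was the only one of the 35 also called in SmoM2 tumours. The H3K27ac region around it, at 72950695–72952408, was unexceptional for the set, with a width of 1714 bp, a fold enrichment of 4.02 and a distance of 20.8 kb to SmoM2 H3K27ac, and the summit lay 62 bp from its centre. SmoM2 tumours thus had a called Gli2 peak there without a called H3K27ac region.

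The other strongly enriched Gli2 peaks were called in DKO tumours only. The peak on chromosome 1 at 94683891–94684204 (fold enrichment 23.1, rank 79) lay in a region of 957 bp, 43.7 kb from SmoM2 H3K27ac. The peak on chromosome 15 at 82798947–82799247 (21.7, rank 98) lay in the region of 1744 bp named above for its high −log10 q, 68.3 kb from SmoM2 H3K27ac. The peak on chromosome 4 at 119949929–119950189 (14.7, rank 189) lay 8.55 kb from a SmoM2 Gli2 peak and 4.09 kb from SmoM2 H3K27ac. The peak on chromosome 4 at 136857632–136857984 (15.2, rank 280) had its summit outside the H3K27ac region, which began at 136857915. The peaks on chromosome 7 at 75377518–75377635 (14.6) and chromosome 5 at 35901705–35901965 (14.8) lay in regions that also touched H3K36me3 of both genotypes.

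**Figure D3:**
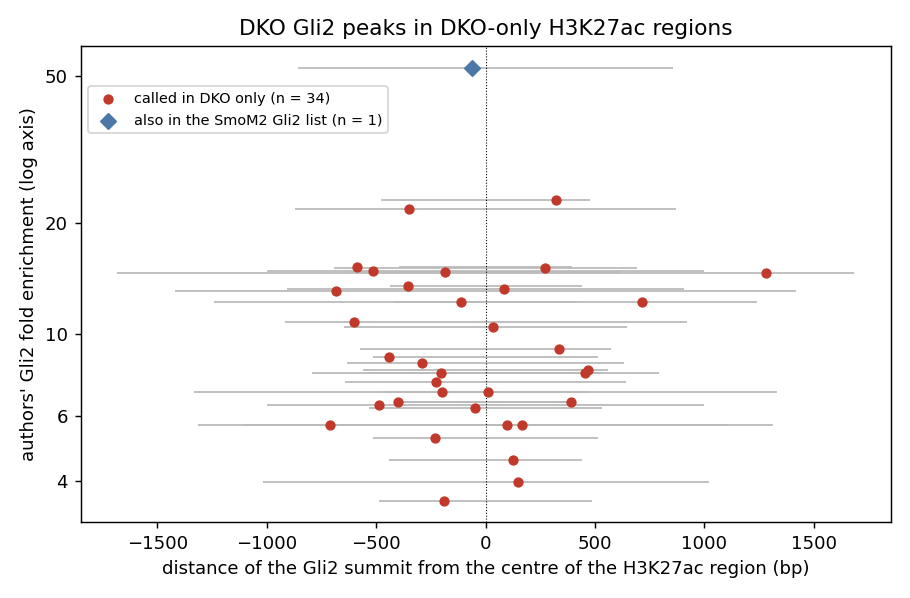
Distance of each DKO Gli2 summit from the centre of its DKO-only H3K27ac region (bp) against the authors' Gli2 fold enrichment (log axis), with grey lines marking the extent of each region. Summits lie on both sides of the centre, 33 of 35 within the region, and the peak also called in SmoM2 tumours (diamond) stands highest at 52.6.

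As a group the Gli2 peaks in DKO-only regions were modest. Their median fold enrichment was 8.32 (quartiles 6.48 and 13.4), against 10.6 (7.83 and 15.5) for the 642 peaks in shared regions and 8.89 (6.96 and 12.2) for the 644 peaks outside DKO H3K27ac. The 76 peaks in narrower DKO H3K27ac regions were no stronger, with a median of 7.46 (5.74 and 10.9) and a median rank of 880.5. Of the 35 peaks, 3 ranked among the 100 highest of the list, which is no smaller a share than 100 of all 1397 peaks. Their median rank was 877. Peaks also called in SmoM2 tumours made up 1 of 35 (2.86%, 0.506–14.5%) in DKO-only regions and 53 of 642 (8.26%, 6.37–10.6%) in shared regions, and these intervals overlap. Within 10 kb, including the peaks inside, a DKO Gli2 peak was found for 124 DKO-only regions (9.37%), against 11.5% of all DKO regions of this width and 1069 shared regions (11.8%), a difference of −2.44 points (−4.05 to −0.63). Among regions of 750 to under 1500 bp these shares were 8.67% and 7.13%, with an interval that included 0 (1.54 points, −0.13 to 3.43). In the narrowest class, 750 to under 1000 bp, the DKO-only share was higher, at 61 of 722 regions (8.45%) against 129 of 2078 (6.21%), a difference of 2.24 points (0.11–4.69). In regions of 2000 bp or more the shares were 22.8% and 22.5%, with an interval that included 0 (0.33 points, −8.79 to 12.8). The intervals also included 0 at 1000 to under 1500 bp (1.24 points, −1.34 to 4.46) and at 1500 to under 2000 bp (−0.05 points, −4.53 to 6.94). The same held in each class of −log10 q (under 2, 2 to 3, 3 to 4, and 4 or more). At 750 to under 1500 bp with a −log10 q of 2 to 3, the difference was 0.55 points (−2.33 to 3.70).

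No difference in Gli2 or H3K36me3 between DKO-only and SmoM2-only regions was detected when both were read in the same list. Gli2 of DKO tumours lay in 35 of 1323 DKO-only regions (2.65%) and 10 of 335 SmoM2-only regions (2.99%), and the interval of the difference included 0 (−0.34 points, −2.87 to 1.35). Gli2 of SmoM2 tumours lay in 1 DKO-only and 2 SmoM2-only regions (0.0756% and 0.597%), again with an interval that included 0 (−0.52 points, −2.08 to 0.036). H3K36me3 of DKO tumours touched 15.0% of DKO-only and 12.5% of SmoM2-only regions (2.43 points, −1.94 to 6.15), and H3K36me3 of SmoM2 tumours touched 13.5% and 13.4% (0.097 points, −4.33 to 3.88).

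Over all widths and call strengths, DKO-only regions touched H3K36me3 more often than shared regions did, in the lists of both genotypes. Within classes of −log10 q (under 2, 2 to 3, 3 to 4, and 4 or more) every interval of the difference included 0. At 4 or more the DKO-only share was the lower one. H3K36me3 of DKO tumours shared a base with 198 DKO-only regions (15.0%, 13.1–17.0%), against 12.3% of all DKO regions of this width and 1077 shared regions (11.9%), a difference of 3.06 points (1.12–5.19). For H3K36me3 of SmoM2 tumours the counts were 179 (13.5%, 11.8–15.5%) DKO-only and 921 (10.2%) shared regions, with 10.6% of all DKO regions of this width and a difference of 3.35 points (1.50–5.39). The difference was larger at equal width. Among regions of 750 to under 1000 bp, DKO H3K36me3 touched 12.9% of DKO-only and 5.58% of shared regions, a difference of 7.30 points (4.81–10.1), and among those of 1000 to under 1500 bp 15.5% and 5.85%, a difference of 9.70 points (6.45–13.5). In regions of 2000 bp or more the shares were 22.8% and 25.5%, with an interval that included 0 (−2.66 points, −11.8 to 9.85).

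The strength of the H3K27ac call moved with this result. The share of regions touching DKO H3K36me3 was higher among weakly called regions of both classes. It was 19.6% of DKO-only and 18.9% of shared regions with a −log10 q under 2 (0.67 points, −5.99 to 7.22). At 3 to 4 the shares were 12.3% and 11.5% (0.79 points, −3.01 to 5.46), and at 4 or more 6.98% and 11.1% (−4.13 points, −7.49 to 1.68). With −log10 q between 2 and 3 the shares were 15.6% and 14.5%, and the interval of the difference included 0 (1.18 points, −2.10 to 4.70). For H3K36me3 of SmoM2 tumours the shares with a −log10 q between 2 and 3 were 14.7% and 12.3% (2.33 points, −0.82 to 5.73). The direction turned above that, with 27 of 276 DKO-only and 156 of 1423 shared regions at a −log10 q of 3 to 4 (−1.18 points, −4.62 to 3.17) and 4.65% and 9.25% at 4 or more (−4.60 points, −7.21 to 0.57). From a −log10 q of 5, where 43 DKO-only regions were left and none touched SmoM2 H3K36me3 (which allows up to 6.98%), the interval excluded 0 (−9.44 points, −10.3 to −1.20). With both width (750 to under 1500 bp) and −log10 q (2 to 3) held within these ranges, 81 of 551 DKO-only regions (14.7%) and 115 of 1035 shared regions (11.1%) touched DKO H3K36me3, a difference of 3.59 points (0.18–7.25), and for SmoM2 H3K36me3 the shares were 14.3% and 9.47%, a difference of 4.87 points (1.56–8.44).

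The classes also differed in how far H3K36me3 extended over a region. All bases were covered by DKO H3K36me3 in 95 DKO-only regions (7.18%, 5.91–8.70%), against 2.15% of all DKO regions of this width and 128 shared regions (1.41%, 1.19–1.68%), a difference of 5.77 points (4.47–7.30). Of the regions touched at all, 95 of 198 DKO-only regions (48.0%, 41.1–54.9%) were fully covered, against 128 of 1077 shared regions (11.9%, 10.1–14.0%). H3K36me3 of SmoM2 tumours fully covered 75 DKO-only regions (5.67%), against 1.50% of all DKO regions of this width and 81 shared regions (0.895%), a difference of 4.77 points (3.63–6.16). This held within each of the 4 width classes for the H3K36me3 of both genotypes. With width and −log10 q in the ranges above, DKO H3K36me3 fully covered 7.62% of DKO-only and 3.67% of shared regions, a difference of 3.95 points (1.61–6.66). Among regions with a −log10 q of 4 or more, 1 of 129 DKO-only regions and 32 of 5989 shared regions were fully covered, and the interval of the difference included 0 (0.24 points, −0.43 to 3.73). It also included 0 under 2 (3.79 points, −0.87 to 8.40), but not at 2 to 3 or 3 to 4. For SmoM2 H3K36me3 the interval included 0 at 3 to 4 (1.27 points, −0.22 to 3.92) and at 4 or more, but not below 3. Full coverage was not particular to these regions. In SmoM2-only regions DKO H3K36me3 covered all bases of 25 of 335 (7.46%), and the difference of DKO-only from SmoM2-only regions had an interval that included 0 (−0.28 points, −3.84 to 2.52). It also covered all bases of 1333 of the 12365 narrower unshared DKO regions (10.8%), against 219 of the 6251 narrower shared ones (3.50%).

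**Figure D4:**
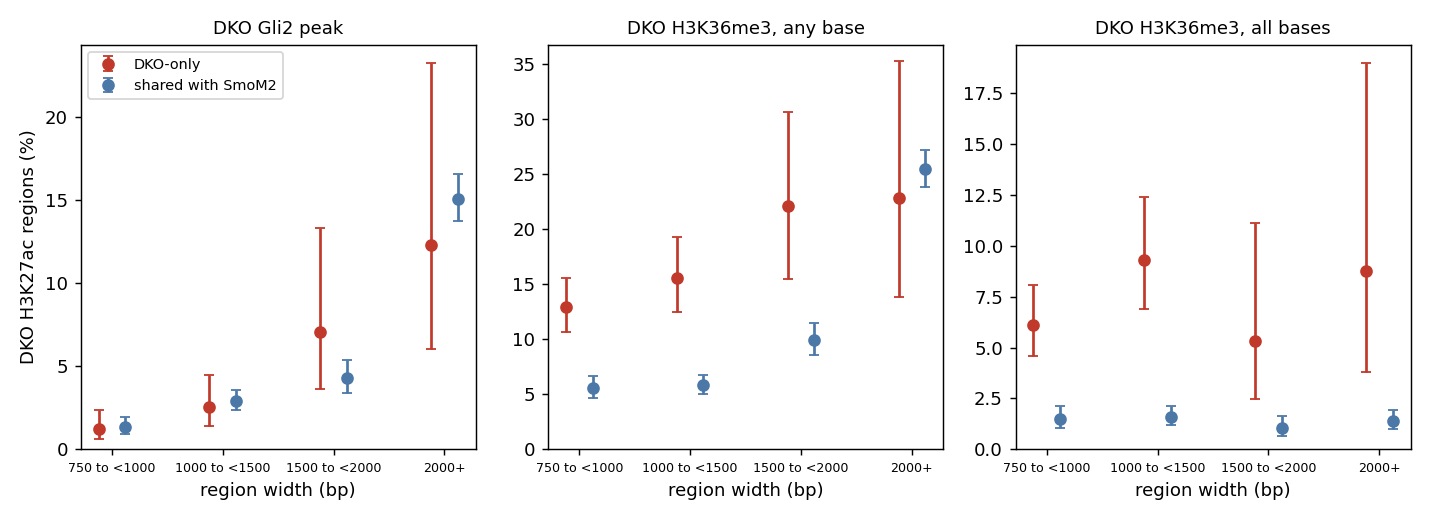
Percentage of DKO-only and shared DKO H3K27ac regions, by width class (bp), that share a base with a DKO Gli2 peak (left), share a base with DKO H3K36me3 (middle) or are covered over all bases by DKO H3K36me3 (right), with Wilson 95% intervals. The Gli2 shares of both classes rise with width and their intervals overlap in every class, whereas full H3K36me3 coverage is 5.31 to 9.28% in DKO-only and 1.04 to 1.61% in shared regions.

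Where H3K36me3 touched a DKO-only region in one genotype it mostly did so in the other. Both lists touched 154 DKO-only regions (11.6%), DKO H3K36me3 alone touched 44 (3.33%), SmoM2 H3K36me3 alone 25 (1.89%) and neither 1100 (83.1%). Of those touched in DKO tumours 77.8% (71.5–83.0%) were also touched in SmoM2 tumours, and of shared regions touched in DKO tumours 72.1% (69.4–74.7%). Of the 95 DKO-only regions fully covered in DKO tumours, 65 were fully covered in SmoM2 tumours too. In covered length, H3K36me3 extended over 151 kb of DKO-only regions in DKO tumours and 128 kb in SmoM2 tumours, a ratio of 1.17, against 1.40 over shared regions and 1.19 for the whole lists on these chromosomes. The 193 DKO H3K36me3 regions that touched DKO-only regions were 4460 bp wide at the median, and the 1329 that touched shared regions 2053 bp.

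The 198 DKO-only regions with DKO H3K36me3 differed from the other 1125 mainly in position. They lay at a median of 4.26 kb from SmoM2 H3K27ac, against 15.1 kb for those without, while their median width was 1042 bp against 962 bp and their median H3K27ac fold enrichment 3.68 against 3.75. Outside H3K36me3, many DKO-only regions were still close to it. Within 10 kb of a DKO H3K36me3 region, or touching it, lay 53.8% (51.1–56.5%) of DKO-only regions and 67.7% (66.7–68.7%) of shared regions. The median distance to DKO H3K36me3 was 7.45 kb for DKO-only and 3.46 kb for shared regions. Over all widths and call strengths, shared regions were thus more often within 10 kb of DKO H3K36me3, while DKO-only regions were more often fully covered by it. The interval of the difference in full coverage included 0 at a −log10 q under 2 and at 4 or more. Distance to H3K36me3 was not compared within classes of width or −log10 q.

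Most DKO-only regions had no other DKO-only region close by. With joining over gaps of up to 10 kb, 1160 of the 1323 stood apart from other DKO-only regions. Of the rest, 130 formed 65 pairs and 33 formed 11 runs of 3, with no larger run. Counting DKO H3K27ac regions of any kind, 861 (65.1%) had another one within 10 kb. Whether DKO-only regions cluster more than randomly placed regions was not tested. The widest run, on chromosome 8 at 125239659–125252737 (13.1 kb), held 6 DKO H3K27ac regions in all and 1 SmoM2 H3K27ac region. The run on chromosome 13 at 112545362–112558376 (13015 bp) held 6 DKO and no SmoM2 H3K27ac regions, and H3K36me3 covered all of it in both genotypes. The run on chromosome 8 at 125142240–125154866 (12.6 kb) likewise held 6 DKO and no SmoM2 H3K27ac regions, with H3K36me3 over 34.5% of it in DKO and 31.8% in SmoM2 tumours. The run on chromosome 5 at 69203357–69213413 had no H3K36me3 in either genotype. None of the 11 runs held a Gli2 peak of either genotype. Of all DKO-only regions 2.65% held a DKO and 0.0756% a SmoM2 Gli2 peak, so 33 regions are too few to set the runs apart.

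DKO-only regions occurred in 769 of the 1786 stretches of 1 Mb that held a DKO H3K27ac region of at least 750 bp, and 453 of these stretches held a single one. The largest number in a stretch was 11, on chromosome 8 at 125000001–126000000, out of 41 DKO regions of that width, and together they spanned 11.7 kb. That stretch held 11 of the 1397 DKO Gli2 peaks and 0 of the 136 SmoM2 Gli2 peaks on these chromosomes. These 2 counts are not compared because the lists differ in length. The next 2 stretches in rank adjoined each other on the same chromosome, with 9 DKO-only regions of 21 at 123000001–124000000 and 8 of 32 at 122000001–123000000. On chromosome 2 at 93000001–94000000, 7 of 18 were DKO-only, and H3K27ac covered 40.5 kb of the stretch in DKO tumours, against 15.8 kb in SmoM2 tumours. Ranking by DKO-only regions favours stretches with more DKO acetylation, so these lengths describe the stretch and are not compared. The DKO H3K27ac list was also the longer one as a whole, at 24.9 Mb against 18.7 Mb. By chromosome, DKO-only regions made up between 10.5% (chromosome 4) and 15.1% (chromosome 8) of the DKO regions of at least 750 bp, and the Wilson intervals of all 19 chromosomes overlap one another.

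**Figure D5:**
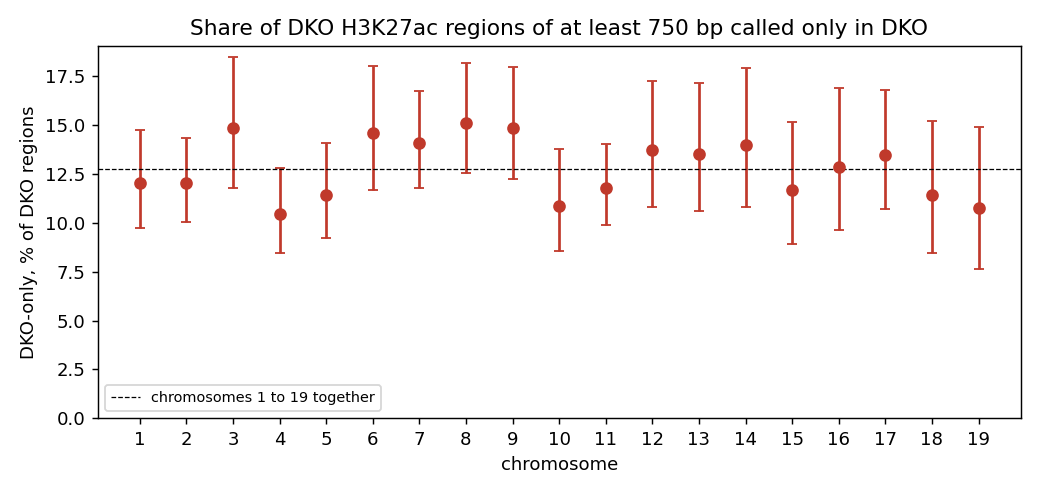
Percentage of DKO H3K27ac regions of at least 750 bp that were called only in DKO tumours, by chromosome, with Wilson 95% intervals. The shares range from 10.5% on chromosome 4 to 15.1% on chromosome 8 around the 12.8% for all 19 chromosomes together (dashed line).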

How the data were processed

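The submitters' processing notes name build mm9 and the tools MACS2, BWA, bedtools and Trimmomatic 0.36, without their roles or settings. The authors deposited 1 merged list for each genotype and antibody, 6 in all. In them the deposited fold enrichment is a linear ratio of signal to the background of the peak caller, p and q values are deposited as −log10 (only q was used), and the deposited score is a whole number derived from −log10 q. Values in the broad H3K27ac and H3K36me3 lists describe a region as a whole, and they were used only within a list. Groups follow the labels' genotype and antibody.

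Regions on chromosomes 1 to 19 were used, and regions overlapped when they shared at least 1 base. Distance is the number of bases from a region's edge to the nearest base of the other, so that adjacent regions are 1 bp apart. The shares and differences have intervals but no p-value, since no test over samples was possible. Where a count was 0, the share said to be allowed is 3 counts over the number of regions, which is lower than the Wilson upper limit. Regions named in the text were those highest in −log10 q, width, distance, Gli2 −log10 q, or number per run or stretch, up to 10 each, of which some are given. The members, lists and comparisons were chosen with earlier results of these data known. The strata of −log10 q, and of width with −log10 q, were added after seeing the data, as were the comparisons by distance, of full H3K36me3 coverage and with SmoM2-only regions. The interval functions were tested on simulated data. Intervals were computed with statsmodels 0.14.6 under Python 3.11.15, with tables in pandas 2.3.3 and figures in matplotlib 3.10.9. The gene and promoter tables at hand are of GRCm38.p6, and no coordinates were converted, so no sequence is shown.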

Additional observations from a re-analysis of the deposited data

Results flagged for a closer look

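Chromosome X, which the comparisons leave out, held 15 DKO-only H3K27ac regions of at least 750 bp out of 142 DKO regions of that width (10.6%, 6.51–16.7%), a share whose interval includes the 12.8% of chromosomes 1 to 19.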

How the results depend on the processing

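Each alternative changed 1 choice unless 2 are named. Under planned settings 21 of 26 differences kept their direction with an interval still excluding 0, 19 of 35 shares stayed inside the Wilson interval of the reported share, and 2 of 5 numbers of DKO-only regions were within 1.5 times the reported number. The number of DKO-only regions was 2887 from 500 bp, 601 from 1000 bp and 43 with an H3K27ac −log10 q of at least 5. The share within 5 kb of SmoM2 H3K27ac moved to 35.4% from 1000 bp, 23.3% at −log10 q of at least 5 and 23.5% without regions within 1 kb of SmoM2 H3K27ac. The share with DKO Gli2 moved to 1.35% from 500 bp, 4.33% from 1000 bp, 9.30% at H3K27ac −log10 q of at least 5 and 1.44% at Gli2 −log10 q of at least 10, and under both −log10 q filters the share with SmoM2 Gli2 was 0, which allows up to 6.98% of 43 regions and 0.227% of 1323. The share with H3K36me3 of DKO tumours moved to 17.5% from 1000 bp, and to 2.33%, with 0% for H3K36me3 of SmoM2 tumours, at H3K27ac −log10 q of at least 5. With at least 50% covered the DKO and SmoM2 shares were 9.67% and 8.24%, and at H3K36me3 −log10 q of at least 2 they were 12.2% and 11.1%. Differences between DKO-only and shared regions reversed at H3K27ac −log10 q of at least 5, where only 43 DKO-only regions were left, to 1.50 points for DKO Gli2, −9.37 for DKO H3K36me3 and −9.44 (−10.3 to −1.20) for SmoM2 H3K36me3. The last of these intervals excludes 0, and the cause was not tested. For Gli2 the difference was −0.51 at equal width, −0.15 at −log10 q between 2 and 3, and 0.45 with both. For DKO H3K36me3 it was 1.92 without regions within 1 kb of SmoM2 H3K27ac and 1.18 at −log10 q between 2 and 3, where SmoM2 H3K36me3 gave 2.33, and the intervals of all 3 included 0. With the DKO list shortened to the number of SmoM2 regions, 1088 DKO-only regions were left and every difference kept its direction with an interval excluding 0. No paired analysis was possible because the lists merge the replicates, which also left no replicate to leave out. Depth is unknown, so regions below the caller's threshold in SmoM2 tumours cannot be told from regions without the mark.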
